A study of Mus musculus with 16 samples.

Results

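Ductal cells line the channels that carry digestive enzymes out of the human pancreas, and 135 of the 1081 single cells in the deposited human matrix carried that label. They were taken as the cells whose names match an entry annotated as ductal in the sample sheet deposited with the matrix. The cells came from 6 donors without type 2 diabetes, numbered here 1 to 6, who gave 4, 19, 14, 67, 8 and 23 ductal cells. No donor was given an experimental treatment, and the matrix with the name of the diabetic donors' cells was a copy of this one and was not used. The series itself concerns the receptor P2ry1 in a mouse β-cell line, whose libraries enter no comparison here, and the human matrix is a re-quantification of another laboratory's pancreas data.

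Ductal epithelium secretes a bicarbonate-rich fluid in answer to the gut hormone secretin. The chloride channel CFTR at the luminal face works with bicarbonate carriers, carbonic anhydrases and aquaporins to make that fluid. The cells are joined by tight junctions, rest on a keratin skeleton, carry a primary cilium and share developmental factors such as SOX9 with the embryonic pancreas from which acinar and endocrine cells also arise.

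Each cell was a library of its own, and no cell name occurred more than once. A ductal cell had a median total of 403836 counts and a median of 8192 genes with a count. The median total per donor ran from 87188 counts in donor 6 to 1608674 in donor 2. The median number of genes detected ran from 4175 in donor 3 to 9660 in donor 5, so depth and detection did not go together over donors. Counts were summed over the ductal cells of a donor and scaled to the same total, in the usual unit CPM. Donors 2 to 6, with at least 5 ductal cells each, gave 5 such sums. A count of 0 in them allows up to 0.0779 to 0.802 CPM, taking 3 counts as the limit, and such limits cover counting error only.

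Cells labelled co-expression or unclassified were left out of every reference. Apart from these, the cell types with at least 5 cells in at least 3 donors were the endocrine alpha, beta, delta and gamma cells. They make glucagon, insulin, somatostatin and pancreatic polypeptide. The difference reported for a gene is the donor's log2(CPM + 1) in ductal cells minus the mean over those of these 4 types that reached 5 cells in the same donor, as a mean ± SD over 5 donors. Levels in CPM called endocrine means are plain averages of those types, so they lean toward a type in which a gene is high. This scale understates differences of genes near 0. A gene counted as higher or lower when the mean difference was at least 1 and its sign was the same in every donor. By that rule 2534 of the 16821 genes at 1 CPM or more were higher in ductal cells, 15.1% of them, and 1556 were lower, 9.25%. The median difference over all genes tested was 0.20. With TMM scaling the median was 0.00 and the counts were 2095 higher and 1947 lower. How the original study assigned its labels is not given in the sources used here. The labels were taken to rest on the same expression profiles, so the differences are described without a p-value.

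Type by type, 12.1% of genes were higher and 13.7% lower in ductal than alpha cells (5 donors), 17.4% and 7.28% against beta cells (5 donors), 17.7% and 6.8% against delta cells (4 donors), and 16.9% and 17.4% against gamma cells (3 donors). Against the cells labelled PSC, which reached 3 cells in 3 donors, 18.6% were higher and 9.41% lower. A same sign in every donor is easier to reach with fewer donors, so shares over unlike numbers of donors are not directly comparable. The difference from each single type entered the ranking of genes and the accounts of P2RX4 and P2RY1.

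All 4 markers that define ductal cells were higher than in the endocrine types in all 5 donors. The labels were taken to rest on the same profiles, so this describes the labelled cells and does not test the label. The sums of donors 2 to 6 held 2030.1, 946, 972, 3024 and 2662 CPM of KRT19, a keratin of simple epithelia. The endocrine means of the same donors were 9.86, 3.66, 6.23, 10.6 and 30.3 CPM, a difference of 7.82 ± 0.84 (SD, n = 5). The groups did not overlap, and donor 6 was highest among the endocrine means. Ductal sums held 1589, 1975, 457, 1069 and 545 CPM of CFTR, against at most 0.761 CPM in any donor's endocrine mean, a difference of 9.59 ± 1.04 (SD, n = 5). For SOX9, a transcription factor of duct and progenitor cells, the values were 34.7, 32.1, 159, 44.1 and 75.3 CPM against at most 2.86 CPM, a difference of 5.17 ± 0.73 (SD, n = 5). SPP1, which encodes the secreted phosphoprotein osteopontin, spanned the widest range, with 26452, 20278, 1305, 8155 and 7085 CPM and a difference of 10.29 ± 2.10 (SD, n = 5). Donor 4 was highest for SOX9 and lowest for both CFTR and SPP1.

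**Figure D1:**
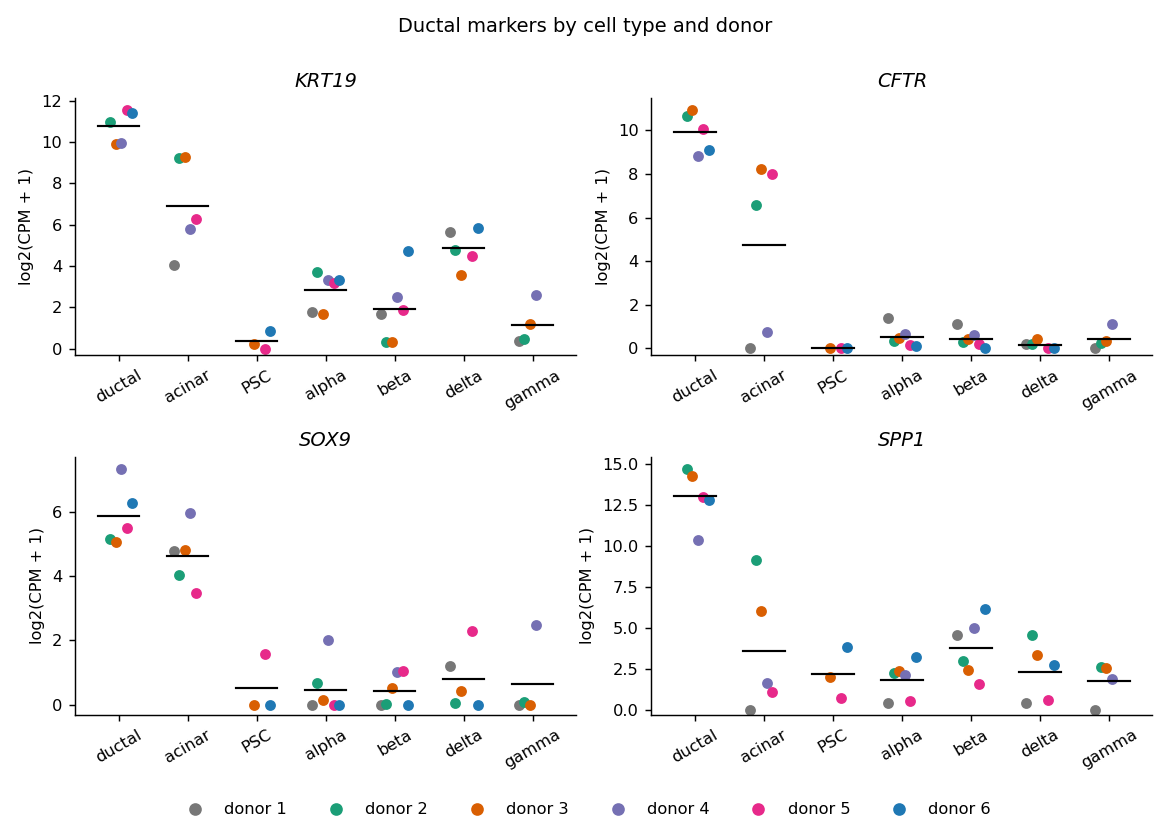
Level of 4 ductal markers as log2(CPM + 1) (y axis) in each cell type (x axis), with 1 point per donor and a line at the mean over donors, from sums of at least 5 cells, or 3 for acinar and PSC cells. Every ductal point lies above every endocrine and PSC point for all 4 genes, while acinar points overlap ductal points for SOX9 and spread widely for CFTR.

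In single cells most markers were found together. Of the 135 ductal cells, 104 had counts for all 4 markers, 30 for 3 and 1 for 2. KRT19 and CFTR each had counts in 134 cells, SPP1 in 130 and SOX9 in 110. Counts for the markers also occurred outside ductal cells. SOX9 had counts in 81.5% of ductal and 82.9% of acinar cells, KRT19 in 63.1% of acinar cells, and SPP1 in 52.3% of acinar and 41.0 to 54.9% of endocrine cells of each type. CFTR had counts in 30.6% of acinar and 13.3% of alpha cells, at median totals of 662686 and 462289 counts. With cells thinned to 100000 counts those CFTR shares were 19.8% and 3.66%, and 99.1% in ductal cells. These shares pool cells over donors, and 80 of the 111 acinar cells come from donor 4. The acinar CFTR level was 0.707 CPM in donor 4, 0 in donor 1 and 94.8, 302 and 257 CPM in donors 2, 3 and 5. Among the 4 markers SPP1 levels varied most, with quartiles of 511 and 9502 CPM around a median of 2276 CPM over ductal cells. Insulin counts were found in 96.3% of ductal cells, so a count for an abundant gene of another type did not by itself mark a cell.

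Beyond the markers, the 15 genes whose smallest difference from any single endocrine type was largest, among genes at 50 CPM or more in ductal cells, included CFTR, MMP7, SPP1, SERPINA3, SERPING1, PIGR, KRT7, OLFM4, SERPINA5, LCN2, CCL2, CLDN1, DEFB1 and CEACAM7. CFTR ranked 1, SPP1 3, KRT19 53 and SOX9 163 of the genes tested. MMP7, a matrix metalloproteinase made by glandular epithelia, stood at 3632, 4109.8, 204, 1859 and 464 CPM in donors 2 to 6, against 1.15 CPM or less in the endocrine means. Donors 4 and 6 were the low ones. CLDN1, a tight junction claudin, was far more even between donors, at 679, 523, 363, 557 and 389 CPM, with a difference of 8.66 ± 0.61 (SD, n = 5). Likewise SERPINA5, a serine protease inhibitor, differed by 8.95 ± 0.55 (SD, n = 5).

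Acinar cells, the enzyme-secreting neighbours of ducts, reached 5 cells in 2 donors only, so they were compared over donors 1 to 5 at a minimum of 3 cells. Donors 1, 3 and 5 had 3 or 4 acinar cells each and donor 4 had 80. By the same rule 1719 of 15565 genes were higher in ductal than acinar cells, 11.0%, and 278 were lower, 1.79%, with a median difference of 0.54. TMM scaling moved that median to 0.26 and the counts to 947 higher and 480 lower. Of these 15 genes, 8 were also higher in ductal than acinar cells. All 4 markers were too, with KRT19 at 3.86 ± 2.75, CFTR at 4.66 ± 2.54, SOX9 at 1.02 ± 0.74 and SPP1 at 8.99 ± 2.40 (SD, n = 5). The SOX9 mean lay just above the limit of 1. CEACAM7, a cell surface glycoprotein, differed by 7.49 ± 1.88 (SD, n = 5), with 18.6 CPM as its highest acinar value and 116 CPM as its lowest ductal value over donors 2 to 6. In contrast, OLFM4 and LCN2 stood at or above the ductal level in acinar cells of 4 of 5 donors, at -2.32 ± 3.85 and -0.51 ± 0.59 (SD, n = 5), and neither met the rule.

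The machinery of fluid secretion was largely on the ductal side. Of 26 ion and water transport genes 22 were tested, of which 15 were higher than in endocrine cells and 1 was lower, 68.2% and 4.55% beside 15.1% and 9.25% of all genes, with a median difference of 2.55 against 0.20 over all genes. With all other annotated cells summed 8 were higher, beside 8.9% of all genes. The basolateral bicarbonate carrier SLC4A4 held 259.7, 617, 397, 679 and 379 CPM in ductal sums and at most 36.4 CPM in endocrine means, a difference of 6.08 ± 0.67 (SD, n = 5). The water channel AQP1 held 380.2, 374, 852, 893 and 423 CPM against 1.44 CPM or less, a difference of 8.74 ± 0.75 (SD, n = 5). The 5 ductal donors lay within a narrow band for both genes.

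Carbonic anhydrases, which supply bicarbonate, showed less even levels. CA2 differed by 5.72 ± 0.99, CA12 by 5.64 ± 1.19, CA9 by 2.87 ± 1.89 and CA4 by 5.99 ± 1.62 (SD, n = 5). CA4, anchored at the cell surface, stood at 87.7, 37.3, 17.1, 48.4 and 357 CPM, with donor 6 far above the others. SCNN1A, a subunit of the epithelial sodium channel, differed by 6.23 ± 0.91, and the potassium channel KCNQ1 by 4.46 ± 2.23 with 0.555 CPM in donor 3 as its lowest level. ATP1B1, a subunit of the sodium pump, was higher by 1.70 ± 0.29. The lone gene on the lower side was KCNMA1, a calcium-activated potassium channel, at -4.91 ± 1.48 (SD, n = 5).

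Against acinar cells 8 of the 22 transport genes tested were higher, 36.4% beside 11.0% of all genes, and none was lower. CA2 differed by 5.82 ± 1.34, SCNN1A by 4.41 ± 1.40 and SLC4A4 by 2.41 ± 1.05 (SD, n = 5). AQP1 averaged 6.03 ± 3.53 but was above the acinar level in 4 of 5 donors only. CA12 and KCNQ1, high against endocrine cells, averaged -0.37 and -1.10 against acinar cells and did not meet the rule.

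Receptors for hormones and growth factors divided between the 2 sides. Of 26 listed receptors 21 were tested, of which 7 were higher and 9 lower in ductal than endocrine cells, 33.3% and 42.9% beside 15.1% and 9.25% of all genes, with a median of -0.62. With a pseudocount of 10 CPM 4 were lower, beside 3.6% of all genes. At a minimum of 3 cells 4 were higher, beside 10.5% of all genes, and the median was -0.01. The secretin receptor SCTR stood at 83.4, 46.6, 170.3, 123 and 172 CPM in ductal sums and 16.3 CPM or less in endocrine means, a difference of 4.0 ± 0.78 (SD, n = 5). SCTR counts were found in 108 of 135 ductal cells. The other higher members were the growth factor receptors EGFR, MET, FGFR2, FGFR3 and INSR and the protease-activated receptor F2RL1. EGFR differed by 5.53 ± 1.09 and F2RL1 by 4.41 ± 0.93, and the 5 ductal levels of F2RL1 stayed between 81.3 and 116 CPM.

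Those on the lower side included the somatostatin receptors SSTR1, SSTR2 and SSTR3, the incretin receptors GLP1R and GIPR, the glucagon receptor GCGR, CCKBR and CHRM3. GLP1R was at 0 in all 5 ductal sums and at 2.51 to 13.9 CPM in endocrine means. CASR, a calcium-sensing receptor, met neither rule against endocrine cells, at -0.62 ± 0.79, with 6.68 to 57.2 CPM in ductal sums and 58.7 CPM or more in the endocrine means. FGFR2 and F2RL1 were the members higher than in acinar cells, 12.5% of 16 tested beside 11.0% of all genes.

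Transcription factors of the developing pancreas separated as well. Of 26 listed 21 were tested, with 13 higher and 4 lower than in endocrine cells, 61.9% and 19.0% beside 15.1% and 9.25% of all genes, and a median of 2.75. BICC1, an RNA-binding protein listed with them, differed by 6.55 ± 0.96, SOX4 by 5.64 ± 1.01, ONECUT2 by 5.36 ± 0.84, NR5A2 by 5.01 ± 0.74 and KLF5 by 4.87 ± 1.36 (SD, n = 5). BICC1 stood at 1697 CPM in donor 3 and at 66.2 to 468 CPM in the other 4 donors. The endocrine factors NEUROD1, NKX2-2 and NKX6-1 were among the lower ones, NEUROD1 by -5.69 ± 3.01. PDX1, shared by β-cells and progenitors, met neither rule and held 27.2, 11.4, 118, 75.7 and 114 CPM in ductal sums. Against acinar cells SOX9, BICC1, GLIS3, EHF, ELF3 and HES1 were higher and 2 of 24 factors were lower, among them GATA4 at -3.85. That is 25.0% higher and 8.33% lower, beside 11.0% and 1.79% of all genes.

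Of the Notch receptors, which carry contact signals that restrain endocrine fate, NOTCH1, NOTCH2 and NOTCH3 were higher than in endocrine cells. So were the ligand JAG1 and the target HES1. Of 20 pathway genes tested 7 were higher and 3 lower, 35.0% and 15.0% beside 15.1% and 9.25% of all genes, with a median of 0.98. Against acinar cells 3 of 17 were higher, NOTCH2, HES1 and RFNG, and HEYL was lower, 17.6% and 5.88% beside 11.0% and 1.79% of all genes. NOTCH2 stood at 88, 54.7, 78.7, 107 and 106 CPM and at no more than 0.23 CPM in any endocrine mean, a difference of 6.30 ± 0.39 (SD, n = 5). That was the smallest SD in the list among genes on the higher side. NOTCH3 differed by 3.96 ± 0.94, NOTCH1 by 2.06 ± 0.58, JAG1 by 4.40 ± 0.56 and HES1 by 3.90 ± 0.73, and HES4 and MAML2 were the other higher members. The ligands DLL1, DLL4 and DLK1 were the lower members. When all other annotated cells of a donor were summed as the reference the median of the Notch list was -0.11. In that setting 4 members were higher, beside 8.9% of all genes, and with a pseudocount of 10 CPM 1 was lower, beside 3.6%.

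The YAP and TEAD pathway, which answers to cell shape and stretch, had 11 of 18 genes on the higher side, 61.1% beside 15.1% of all genes, and none on the lower, with a median of 2.59. With a pseudocount of 10 CPM 7 were higher, beside 8.66% of all genes. Its classical targets CCN1 and CCN2 differed by 6.57 ± 0.60 and 6.54 ± 0.63, the coactivator WWTR1 by 4.59 ± 1.21 and YAP1 by 3.15 ± 1.10 (SD, n = 5). CCN1 held 49.8, 91.1, 129, 158 and 133 CPM in ductal sums against 0.281 CPM or less in endocrine means. Immediate-early genes, which dissociation can raise, were measured beside them: 4 of 16, namely DUSP1, IER2, IER3 and KLF6, were higher, 25.0% beside 15.1% of all genes, and none lower, with a median of 0.71. Without donor 3 the count was 7, beside 19.1% of all genes, and with all other annotated cells summed it was 2, beside 8.9%. The part of that difference in the YAP list was not tested. WWTR1, AMOTL2 and ANKRD1 of this list were higher than in acinar cells, 16.7% of 18 tested beside 11.0% of all genes.

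**Figure D2:**
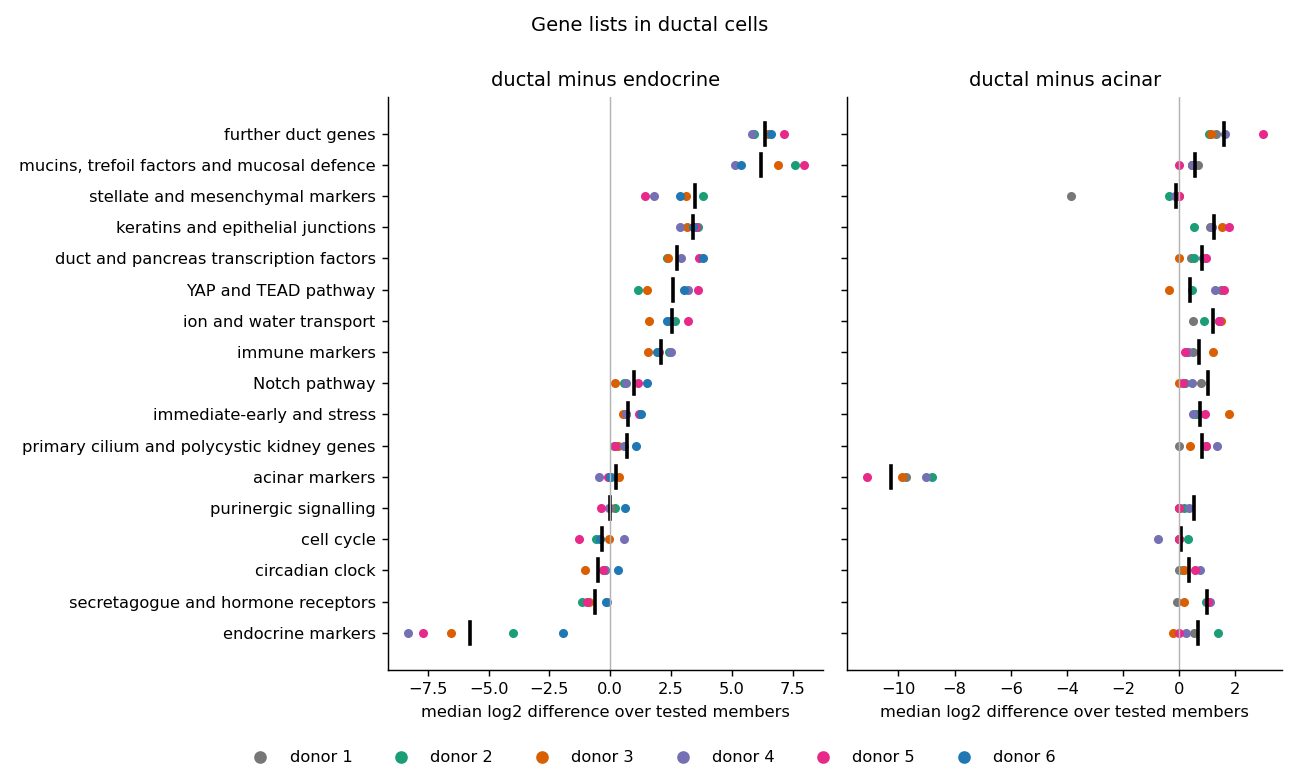
Median log2 difference over the tested genes of each list (x axis), ductal minus endocrine at left and ductal minus acinar at right, with 1 point per donor and a black line at the median of the genes' mean differences. Duct, mucosal, keratin and transport lists lie above 0 in every donor at left, endocrine markers lie below 0 at left, and acinar markers lie below 0 at right.

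Most keratins and epithelial junction genes were on the ductal side. Of 33 listed 32 were tested, 28 were higher than in endocrine cells and none lower, 87.5% of those tested beside 15.1% of all genes, with a median of 3.38 and donor medians from 2.86 to 3.59. The keratins KRT7, KRT19, KRT23 and KRT80 differed by 9.73, 7.82, 7.50 and 5.62, and KRT18 and KRT8 by 4.42 and 4.02. The claudins CLDN1, CLDN10 and CLDN2 differed by 8.66, 7.93 and 7.31. LAMB3, a chain of a basement membrane laminin, differed by 6.96 ± 0.53 and its integrin partner ITGB4 by 5.38 ± 1.36 (SD, n = 5). EPCAM, DSP, PKP2 and PKP3 met neither rule, with differences of 0.12 to 0.77, and EPCAM held 277 to 699.5 CPM in endocrine means. Reads of KRT8 and KRT18 may be shared with their processed copies, so those levels are uncertain.

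Against acinar cells 14 of 32 keratin and junction genes were higher, 43.8% beside 11.0% of all genes, and none was lower, with a median of 1.22. KRT23 had the largest difference, 5.66, followed by KRT19 at 3.86 and KRT80 at 3.51. KRT7 averaged 1.07 ± 1.63 (SD, n = 5) and was above the acinar level in 4 of 5 donors.

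Mucosal defence genes were high against endocrine cells and mixed against acinar cells. Of 31 listed 26 were tested, 19 were higher than in endocrine cells and 1 was lower, 73.1% and 3.85% beside 15.1% and 9.25% of all genes, with a median of 6.20. With all other annotated cells summed, acinar cells included, 11 were higher, beside 8.9% of all genes. The antiprotease SERPINA3 held 4834, 1547, 1128, 3852 and 3194 CPM in ductal sums and 8.64 CPM or less in endocrine means, a difference of 10.09 ± 1.72. The immunoglobulin receptor PIGR differed by 9.57 ± 1.35, the iron-binding lipocalin LCN2 by 9.38 ± 1.48, the β-defensin DEFB1 by 8.97 ± 1.43 and complement factor CFB by 8.93 ± 1.50 (SD, n = 5). TFF3, a trefoil peptide, was the lower member at -3.11 ± 2.07, a call lost with a pseudocount of 0.1 CPM, with the mean of per-cell CPM and without the 5% of cells with the highest totals. The gel-forming mucins MUC5AC and MUC5B and the trefoil peptides TFF1 and TFF2 lay under 1 CPM in both ductal and endocrine means and were not tested.

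In the acinar comparison 7 of 28 genes were higher in ductal cells and 2 were lower, 25.0% and 7.14% beside 11.0% and 1.79% of all genes. The higher ones included MMP7 at 5.41 ± 1.41, CCL2 at 4.97 ± 4.0, SLPI at 4.67 ± 1.93 and DEFB1 at 4.28 ± 3.59. MUC1, a membrane mucin, and IL32, a cytokine, were the lower ones, at -1.63 ± 0.71 and -2.12 ± 0.79 (SD, n = 5). IL32 stood at 287 to 718 CPM in the ductal sums of donors 2 to 6 and at 815 to 3258 CPM in acinar sums of donors 1 to 5. These ranges cover unlike donors, whereas the difference was paired over donors 1 to 5. SERPINA3, LCN2, C3 and CFB averaged -1.13, -0.51, -2.04 and -1.28 and met neither rule, each above the acinar level in 1 of 5 donors.

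**Figure D3:**
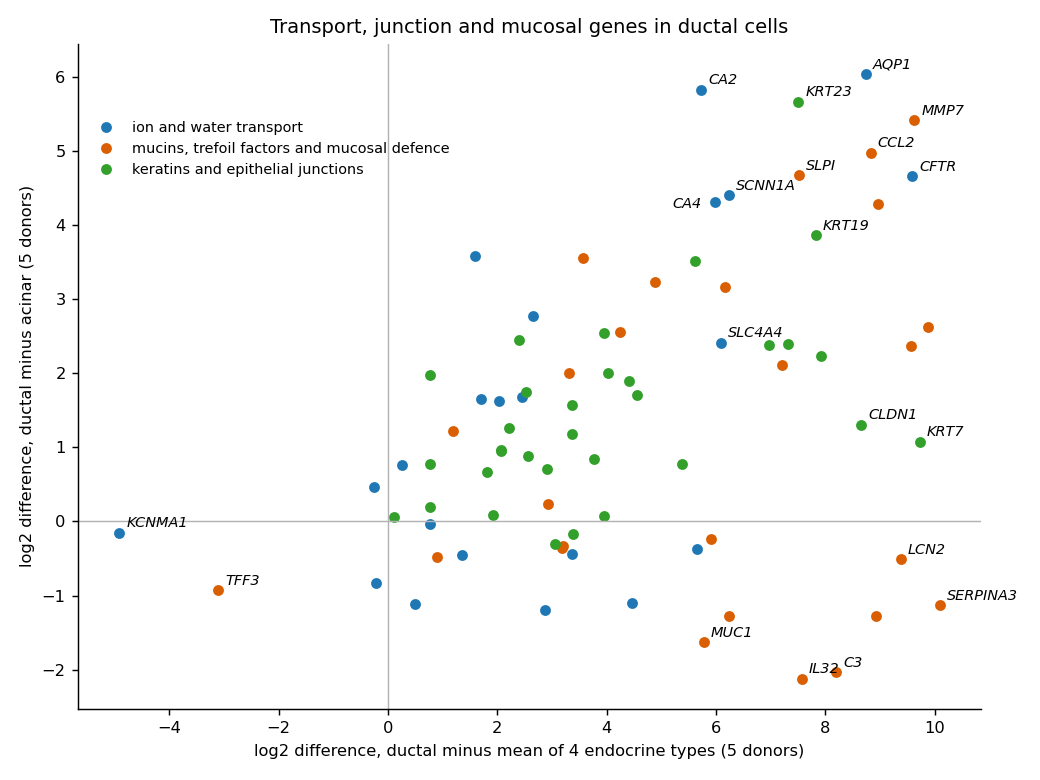
Difference from the mean of 4 endocrine types (x axis) against difference from acinar cells (y axis), both in log2(CPM + 1) and averaged over 5 donors, with 1 point per tested gene of 3 lists. Nearly all points lie right of 0, and they spread above 0 for AQP1, CA2 and MMP7 and below 0 for IL32, C3 and MUC1.

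Genes of the primary cilium and of cystic kidney disease were mixed. Of 15 tested 4 were higher than in endocrine cells, among them BICC1, PKHD1 and CYS1, and PKD1 was lower, with a median of 0.70. That is 26.7% higher and 6.67% lower, beside 15.1% and 9.25% of all genes. None was lower with a pseudocount of 10 CPM, beside 3.6% of all genes. The median was 0.44 without donor 5 and 0.14 at a minimum of 3 cells. PKHD1, the gene of recessive polycystic disease, stood at 45.9, 33, 25, 42.8 and 14.4 CPM, against 0.00662 CPM in the endocrine mean of donor 2 and 0 in the others, a difference of 4.95 ± 0.65 (SD, n = 5). PKD1 differed by -1.73 ± 0.74. The other 10 genes tested met neither rule.

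Purinergic signalling, the theme of the series, was described through 28 genes of nucleotide and adenosine receptors, enzymes that break down nucleotides or adenosine, and proteins that transport ATP. Of 16 tested 1 was higher, P2RX4, and 3 were lower, ENTPD3, NT5E and P2RX6, with a median of -0.03. That is 6.25% higher and 18.8% lower, beside 15.1% and 9.25% of all genes. With all other annotated cells summed none was higher and 5 were lower, beside 8.9% and 12.7% of all genes. With a pseudocount of 10 CPM or at a minimum of 3 cells 1 was lower, beside 3.6% and 5.53% of all genes. P2RX4, an ATP-gated channel, stood at 133, 84.5, 91.1, 112 and 113 CPM in ductal sums and at 67.6, 29.6, 54.1, 52 and 49.2 CPM in endocrine means, a difference of 1.30 ± 0.33 (SD, n = 5). Against single types it was higher than in beta cells by 1.84 ± 0.50 (SD, n = 5), delta cells by 1.63 ± 0.71 (SD, n = 4) and gamma cells by 1.70 ± 0.39 (SD, n = 3), while the difference from alpha cells, 0.29 ± 0.34 (SD, n = 5), did not meet the rule. Against acinar cells it averaged 0.25 ± 0.65 and met neither rule.

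P2RY1, the human counterpart of the receptor in the series, held 4.78, 0, 3.09, 5.35 and 3.21 CPM in the ductal sums of donors 2 to 6. Its mean level was 27.2 ± 11.2 CPM in beta cells (SD, n = 6) and 50.8 ± 39.2 CPM in delta cells (SD, n = 5). Alpha cells averaged 0.0252 CPM, and gamma cells were at 0 in all 4 sums. The 3 sums of PSC cells held 29.4, 1.32 and 0 CPM. The ductal level was lower than in beta cells of the same donor in 5 of 5 donors, by -2.78 ± 0.48 (SD, n = 5). The other types did not meet the rule. The difference from delta cells was -2.96 ± 2.82 (SD, n = 4), from -6.68 in donor 3 to 0.02 in donor 6, and averaged -1.72 without donor 3. Against alpha cells it was 1.82 ± 1.08 (SD, n = 5) and against gamma cells 1.52 ± 1.34 (SD, n = 3), with donor 3, at 0 CPM in ductal cells, not above either. Counts of P2RY1 were found in 22 of 135 ductal cells, namely in 12 of 67 cells of donor 4, 5 of 23 of donor 6, 3 of 8 of donor 5, 2 of 19 of donor 2 and none of the 4 and 14 cells of donors 1 and 3. Pooled over donors the share was 16.3% in ductal cells, 39.0% in beta cells, 32.2% in delta cells, 1.37% in alpha cells and 0.901% in acinar cells. None of 74 gamma cells had a count. That allows counts in up to 4.05% of such cells by counting error alone, with cells taken as independent, and does not limit how many express the gene. With every cell thinned to 100000 counts, which left out 21 ductal, 22 beta and 10 delta cells, the ductal, beta and delta shares were 16.7%, 33.1% and 28.6%.

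Adenosine receptors and ectonucleotidases with 5 CPM or more in ductal sums included ADORA1, ADORA2B, ENTPD2, ENTPD8 and the ATP-release channel PANX1. ADORA1 stood at 4.57, 0, 18.8, 45.4 and 10.5 CPM, with at most 0.0515 CPM in an endocrine mean and 0.0164 CPM in an acinar sum. Its difference from endocrine cells was 3.15 ± 2.08 (SD, n = 5), which did not meet the rule because donor 3 was at 0. ADORA1 counts were found in 48 of 67 cells of donor 4 and in none of the 14 cells of donor 3. ADORA2B, ENTPD8 and PANX1 averaged 2.16 ± 2.27, 2.16 ± 1.51 and 1.52 ± 1.32, and ENTPD2 averaged 0.13 ± 1.35 (SD, n = 5). Without donor 3, in which the fewest genes were detected per cell, 5 purinergic genes were higher: P2RX4, ADORA1, ADORA2B, ENTPD8 and P2RY2. That is 5 of the 16 genes tested in this setting, in which SLC17A9 took the place of P2RX7, where 19.1% of all genes were higher. ADORA1 then differed by 3.94 ± 1.28 (SD, n = 4).

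**Figure D4:**
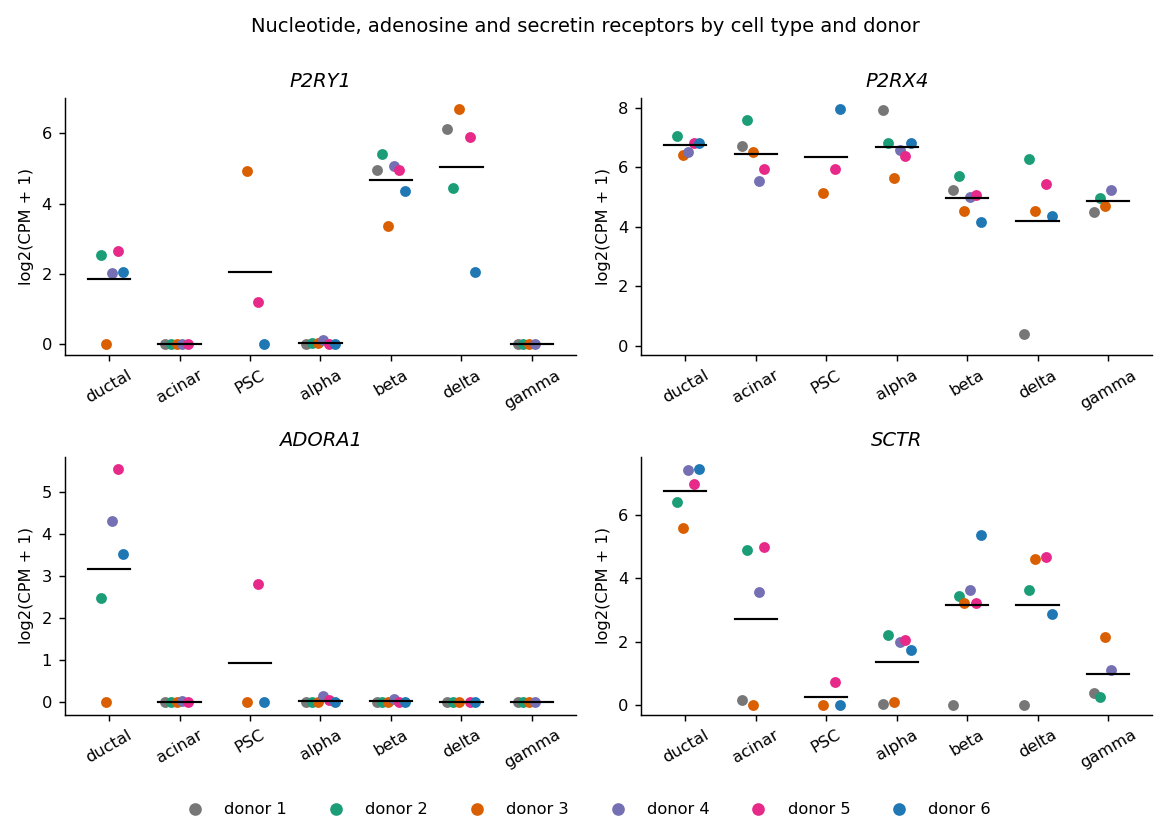
Level of P2RY1, P2RX4, ADORA1 and SCTR as log2(CPM + 1) (y axis) in each cell type (x axis), with 1 point per donor and a line at the mean over donors. P2RY1 is above the ductal sums in all beta sums, 4 of 5 delta sums and 1 PSC sum, while ADORA1 is above 0.2 in 4 of 5 ductal sums and 1 of 3 PSC sums only.

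Most clock genes met neither rule. Of 24 tested 2 were higher, ARNTL2 and BHLHE40, and 5 were lower, PER3, RORB, DBP, TEF and HLF, with a median of -0.50. That is 8.33% higher and 20.8% lower, beside 15.1% and 9.25% of all genes. BHLHE40, a repressor that also answers to stress, held 119, 69, 71.6, 38.8 and 146 CPM against 19.9 to 56.1 CPM in endocrine means, a difference of 1.45 ± 0.51 (SD, n = 5). ARNTL2, a paralog of the core activator, differed by 2.18 ± 1.25. PER3 stood at 1.37 to 14.7 CPM in ductal sums and at 21.9 to 48.6 CPM in endocrine means, a difference of -2.04 ± 1.34. The core genes CLOCK, ARNTL, CRY1, CRY2, PER1 and PER2 met neither rule. With TMM scaling 8 clock genes were lower, the 5 named and PER1, NR1D2 and CIART, beside 11.5% of all genes in that setting. With a pseudocount of 10 CPM 1 was lower and at a minimum of 3 cells 1, beside 3.6% and 5.53% of all genes. With all other annotated cells summed none was higher, beside 8.9% of all genes, and without donor 3 the median was -0.25.

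Endocrine genes formed the lower end. The 5 genes with the largest negative differences at 50 CPM or more in the endocrine mean were ABCC8, PTPRN, CHGB, SCGN and PCSK1N, which serve insulin secretion and secretory granules. ABCC8, the sulfonylurea receptor of the β-cell potassium channel, was at 1.44, 0.444, 0.286, 0.535 and 67.9 CPM in ductal sums against 353 to 1087 CPM in endocrine means, a difference of -7.46 ± 2.11 (SD, n = 5). Of 15 endocrine markers 12 were lower, 80.0% beside 9.25% of all genes, with a median of -5.77. Their summed level in ductal cells ran from 149.6 to 33889 CPM with a median of 317 CPM, and donor 6 was highest. In 3 of the 135 ductal cells, from 2 donors, the hormones INS, GCG, SST, PPY and GHRL took 6.29 to 17.8% of the counts, and in the others 0.174% at most. Without those 3 cells the median of the endocrine list was -7.51 and 13 of 15 members were lower, beside 10.3% of all genes. GCG, which met neither rule before at -1.25 ± 3.79, was then lower at -3.75 ± 0.44 (SD, n = 5). TTR gained a call and PPY, at -3.16 ± 2.49, lost its own. The order of the lowest genes changed as well. Among the endocrine markers SCG5, CHGB and CHGA were then lowest, at -8.94, -8.77 and -8.64, with ABCC8 at -8.36 and PCSK1N at -7.89. TTR stood at 6311 CPM in donor 6 with those cells and at 48.3 CPM without them.

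RNA of other cell types was measured through their markers. All 21 acinar markers were lower in ductal than acinar cells, beside 1.79% of all genes, with a median of -10.27, and their summed level in ductal sums was 375 to 1566 CPM against 215424 CPM in the pooled acinar cells. Against endocrine cells 14 of the 16 acinar markers tested met neither rule, with 6.25% higher and 6.25% lower beside 15.1% and 9.25% of all genes. CPB1, a carboxypeptidase, was lower at -2.0 ± 0.87 and REG1A, a secreted protein of acinar cells, was higher at 6.56 ± 2.12 (SD, n = 5), with 273 to 1319.6 CPM in ductal sums. Of 10 immune markers 6 were tested, and CD74, HLA-DRA and CD68 were higher than in endocrine cells, 50% beside 15.1% of all genes, while PTPRC, which all white blood cells carry, was at 0 in every ductal sum. CD74, the chaperone of class II antigen presentation, held 3275, 1399, 581, 2572 and 1884 CPM against 15.7 to 56.5 CPM, a difference of 6.34 ± 0.74, and HLA-DRA differed by 7.21 ± 1.55. None of 4 immune markers tested was higher than in acinar cells, beside 11.0% of all genes. Of 13 stellate markers 5 were tested. VIM, FN1 and COL1A1 were higher than in endocrine cells, 60.0% beside 15.1% of all genes. Against acinar cells none of 5 was higher and VIM was lower, 20.0% beside 1.79% of all genes. At a minimum of 3 cells, which adds acinar and PSC cells to the reference and a sixth donor, no stellate marker was higher, beside 10.5% of all genes. With all other annotated cells summed none was higher and 2 were lower, beside 8.9% and 12.7% of all genes, and the median was -1.10. PDGFRB and THY1 were at 0 in every ductal sum, and the markers summed to 159.8 to 362 CPM against 42645 CPM in the cells labelled PSC. Endothelial markers summed to 6.55 CPM at most. No cell cycle gene of 9 tested met either rule, beside 15.1% of all genes higher and 9.25% lower. When all other annotated cells were summed 5 were lower with a median of -1.16, beside 12.7% of all genes lower. With a pseudocount of 0.1 CPM 1 was lower, beside 10.6% of all genes. MKI67 counts were found in 1 ductal cell.

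Variation among single ductal cells was described with 2 lists that follow the published split of duct cells into a CFTR-rich and a mucin and trefoil type. The first held CFTR, SLC4A4, SCTR, AQP1, SOX9, ONECUT2, BICC1, PKHD1, SPP1 and DEFB1, and the second TFF1, TFF2, MUC1, MUC20, PLAT, KRT19, LCN2, SLPI, MMP7 and CXCL6. Each cell's mean over a list, after the mean of its donor was taken off, correlated at r = 0.34 over 135 cells between the lists, so cells high in one list tended to be high in the other. With cells thinned to 100000 counts r was 0.25 over 114 cells, and without any 1 donor it was 0.25 to 0.41. Both means correlated at -0.06 with log10 total counts. Cells of 1 donor share their preparation, and no p-value is given.

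Single pairs of genes were weaker than the list means in most cases. Of 45 pairs inside the CFTR list 43 were positive, with a median r of 0.21, and of 70 pairs between the lists 57 were positive with a median of 0.10, leaving out TFF1, TFF2 and PLAT, which had counts in few cells. CFTR correlated at 0.36 with SCTR, 0.33 with SLC4A4 and 0.31 with AQP1, and at -0.24 with KRT19. The strongest pair over both lists was MMP7 with CXCL6 at 0.49, followed by SLC4A4 with MUC20 at 0.45 and SPP1 with DEFB1 at 0.43. By ranks the SLC4A4 and MUC20 pair fell to 0.19 and the MMP7 and CXCL6 pair stayed at 0.48.

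**Figure D5:**
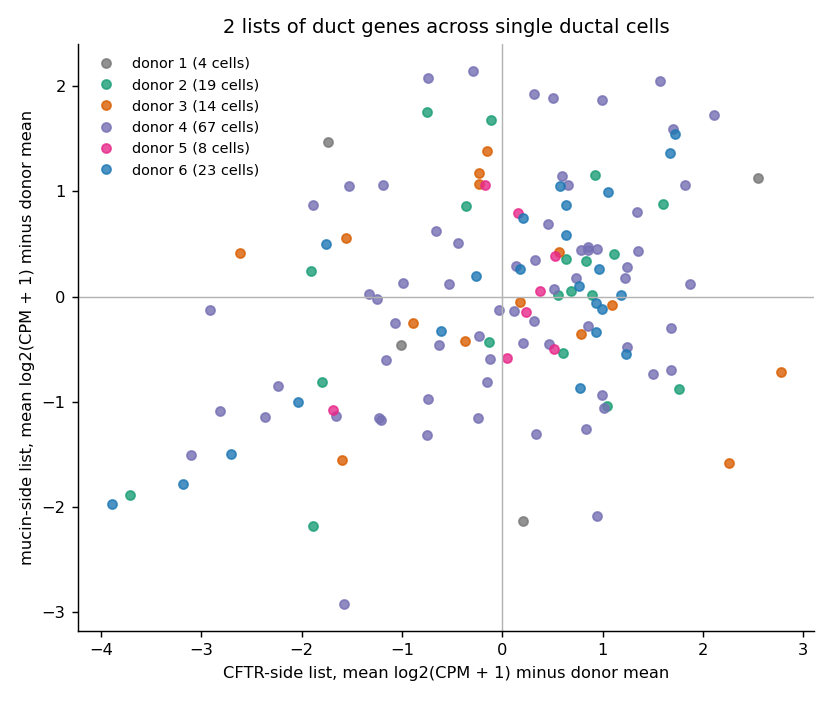
Mean log2(CPM + 1) over the CFTR-side list (x axis) and over the mucin-side list (y axis) for each of 135 ductal cells, both with the donor's mean subtracted, coloured by donor. The cells form 1 cloud that slopes upward, with r = 0.34.

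Total counts per cell were compared over donors as a measure outside the expression values. Mean log10 totals of ductal cells were above those of alpha cells by 0.12 ± 0.16 and beta cells by 0.10 ± 0.18 (SD, n = 5), delta cells by 0.22 ± 0.08 (SD, n = 4) and gamma cells by 0.18 ± 0.14 (SD, n = 3). Ductal cells were higher in 4 of 5, 4 of 5, 4 of 4 and 3 of 3 donors. Leaving out 1 donor gave 0.062 to 0.174, 0.024 to 0.144, 0.184 to 0.244 and 0.101 to 0.239. Over cells pooled across donors the order was the other way. The median total was 403836 counts in ductal cells and 462289, 547765, 488731 and 461540 in alpha, beta, delta and gamma cells. Exact two-sided sign-flip permutation tests over donors gave p = 0.125, 0.25, 0.125 and 0.25, each 0.25 after Benjamini-Hochberg adjustment over the 4 types. The smallest p that 5, 4 and 3 donors allow is 0.0625, 0.125 and 0.25, so no test here could pass 0.05.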

How the data were processed

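The authors converted public reads with sra-toolkit 2.10.5 and quantified each cell with RSEM 1.3.3 on GRCh38.p12, per the series' design text. The deposited matrix holds estimated counts of 57980 genes in 1081 cells, all whole numbers. Cells without quality problems were kept by the authors, and neither a doublet caller nor a further cell filter was run here. Cells labelled co-expression or unclassified entered no reference. Strand is not recorded. XIST and Y-linked genes are not reported, 101 symbols in all. Counts were summed by donor and type and scaled to CPM, with a pseudocount of 1, using numpy 2.4.6, pandas 2.3.3 and scipy 1.17.1 in Python 3.11.15. TMM factors came from edgeR 4.0.16 in R 4.3.3. The steps were tested on simulated data. Members, 21 lists and rules were chosen with earlier results of these data known. Named are the markers, the 15 genes with the largest smallest difference at 50 CPM or more, the 5 lowest, at most 8 called members a list in each direction, and purinergic genes at 5 CPM or more. Some genes are counted in the lists but not reported here. P2RY1 and members that met neither rule were named after their values were seen. Alternatives were other pseudocounts, scalings, cell minimums, references and single donors left out.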

Additional observations from a re-analysis of the deposited data

Results flagged for a closer look

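ABCC8 stood at 67.9 CPM in the ductal sum of donor 6, far from the other 4 donors, which held 0.286 to 1.44 CPM. On the log2 scale that gap took more than the share of the range that chance gives in about 1 of 20 groups of 5, and 28 groups of 5 were examined, of which chance would give 1.4. Without the 3 ductal cells in which hormones took over 1% of the counts, donor 6 held 2.11 CPM of ABCC8.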

How the results depend on the processing

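All human differences were paired by donor. For the replicate numbers of the mouse libraries, no paired analysis was possible because those libraries enter no comparison. With a pseudocount of 10 CPM, 1456 genes were higher and 605 lower than in the endocrine types. The same setting gave 1278 and 846 against alpha, 1661 and 610 against beta, 1803 and 605 against delta, 1707 and 1300 against gamma, and 966 and 177 against acinar cells. With all other annotated cells summed, apart from those labelled co-expression or unclassified, 1516 genes were higher and 2166 lower. Of the called genes 41.2% were then higher, against 62.0% with the endocrine types. In that setting the medians of the Notch list and of the stellate list were -0.11 and -1.10. At a minimum of 3 cells, which adds acinar and PSC cells, 940 genes were lower, and 1931 were lower than in gamma cells. TMM scaling gave 947 and 480 against acinar cells, and the 2 donors with 5 acinar cells gave 3201 and 1040, a setting added after seeing the data, as were thinning and leaving out hormone-rich cells. The cause of these shifts was not tested. With fewer donors the same sign in every donor is easier to reach, so counts over unlike numbers of donors are not directly comparable. Leaving out 1 donor gave 1139 to 1756 genes lower than in delta cells, the highest without donor 6, 1855 to 2699 higher than in acinar cells, the highest without donor 1, and 346 to 456 lower, with 456 without donor 3 and 454 without donor 5. Every marker kept its direction in all settings. The comparison with type 2 diabetes was not run, because the matrix holds no donor with it. Depth limits genes under about 1 CPM, and acinar results rest on few cells.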
